A study of Mus musculus with 6 samples.

Results

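The genes described here are 42 mouse genes of the interferon response: the interferon-inducible GTPases, the IFIT and OAS families, STAT and IRF transcription factors, sensors of foreign nucleic acid, the ISG15 system, the PARP9 complex and further effectors. Members were found by gene symbol, and 40 of the 42 have a row in the expression table, which lists 18159 genes. Mx1 and Mx2 have no row and were not analysed here. The other 40 all passed the filter on low counts, which kept 13558 genes for testing.

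The study compared intestinal epithelial cells of wild-type mice with those of Git2-knockout mice, with 3 libraries of each. Git2 encodes a GTPase-activating protein for Arf GTPases that also serves as a signalling scaffold. Sample titles call the second group knockout, whereas their genotype field reads knockdown, and neither names the allele or the strain. The design text describes every sample as enteroids from mice aged 12 days, and the titles speak of epithelial cells. No treatment with an interferon, a virus or a bacterium is given for either group, and nothing says whether animals were pooled or whether the libraries of a group came from separate animals or cultures. P-values therefore measure the spread between these libraries only, which may be technical.

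Type I and type III interferons signal through paired receptors and Janus kinases to a complex with STAT2 and IRF9, which binds the interferon-stimulated response element of target genes. Interferon-gamma acts through its own receptor and the gamma-activated site. In the gut epithelium, type III interferon is known as a main signal against enteric viruses, and the interferon-gamma-induced GTPases as a defence against parasites and bacteria that live in vacuoles.

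Promoter sequences are shown for 8 members, so that genes of a shared family that differed between the groups by unequal amounts, as described further on, can be read side by side. Each is the run of 250 bases before the RefSeq start site in GRCm38.p6, written 5′ to 3′ on the gene's strand. Capitals mark letters that match the response element (GAAA, then 2 bases of any kind, then GAAA) or the gamma-activated site (TTC, then 3 bases of any kind, then GAA), read on both strands. The second motif reads the same on both strands, and overlapping matches were kept. Irgm1 and Irgm2 are regulators of the immunity-related GTPases, Igtp (also called Irgm3) is the third regulator, Gbp2 and Gbp7 are guanylate-binding proteins, Ifit1 and Ifit3 bind or help to bind viral RNA, and Isg15 is a ubiquitin-like protein.
Irgm1, NCBI gene 15944, chr11:48871421-48871670, minus strand: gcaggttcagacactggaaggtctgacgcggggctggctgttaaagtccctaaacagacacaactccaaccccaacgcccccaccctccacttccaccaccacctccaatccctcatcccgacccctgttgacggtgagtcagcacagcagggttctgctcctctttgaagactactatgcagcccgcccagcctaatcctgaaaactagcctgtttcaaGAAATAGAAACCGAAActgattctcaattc
Irgm2, NCBI gene 54396, chr11:58214727-58214976, plus strand: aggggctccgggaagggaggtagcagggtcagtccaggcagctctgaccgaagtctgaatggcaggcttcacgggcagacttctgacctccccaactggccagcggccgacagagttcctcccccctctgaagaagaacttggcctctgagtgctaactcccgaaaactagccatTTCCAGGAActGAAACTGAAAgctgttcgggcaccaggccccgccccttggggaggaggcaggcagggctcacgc
Igtp, NCBI gene 16145, chr11:58199306-58199555, plus strand: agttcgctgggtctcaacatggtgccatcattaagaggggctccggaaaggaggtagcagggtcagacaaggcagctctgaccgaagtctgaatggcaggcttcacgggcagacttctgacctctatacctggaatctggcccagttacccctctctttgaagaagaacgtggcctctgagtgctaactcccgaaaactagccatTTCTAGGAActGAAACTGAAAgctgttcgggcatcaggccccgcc
Gbp2, NCBI gene 14469, chr3:142620413-142620662, plus strand: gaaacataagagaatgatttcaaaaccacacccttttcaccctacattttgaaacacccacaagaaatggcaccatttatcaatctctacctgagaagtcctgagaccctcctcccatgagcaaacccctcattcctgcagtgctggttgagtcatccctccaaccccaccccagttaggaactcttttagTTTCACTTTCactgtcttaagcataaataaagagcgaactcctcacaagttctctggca
Gbp7, NCBI gene 229900, chr3:142530086-142530335, plus strand: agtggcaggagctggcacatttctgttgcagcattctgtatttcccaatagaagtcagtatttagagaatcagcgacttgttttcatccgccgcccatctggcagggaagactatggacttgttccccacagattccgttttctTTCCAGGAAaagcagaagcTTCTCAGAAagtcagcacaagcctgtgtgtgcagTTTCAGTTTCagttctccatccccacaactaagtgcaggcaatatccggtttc
Ifit1, NCBI gene 15957, chr19:34640639-34640888, plus strand: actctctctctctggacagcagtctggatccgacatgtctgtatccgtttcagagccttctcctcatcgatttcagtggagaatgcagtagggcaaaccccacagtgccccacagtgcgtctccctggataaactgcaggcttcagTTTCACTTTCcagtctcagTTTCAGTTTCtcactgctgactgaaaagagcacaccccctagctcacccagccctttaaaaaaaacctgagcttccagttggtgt
Ifit3, NCBI gene 15959, chr19:34583279-34583528, plus strand: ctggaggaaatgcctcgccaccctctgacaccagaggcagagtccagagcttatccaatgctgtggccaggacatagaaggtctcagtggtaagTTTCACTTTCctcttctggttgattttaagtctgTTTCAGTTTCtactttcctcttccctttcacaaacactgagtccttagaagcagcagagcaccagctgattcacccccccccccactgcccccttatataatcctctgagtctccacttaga
Isg15, NCBI gene 100038882, chr4:156200819-156201068, minus strand: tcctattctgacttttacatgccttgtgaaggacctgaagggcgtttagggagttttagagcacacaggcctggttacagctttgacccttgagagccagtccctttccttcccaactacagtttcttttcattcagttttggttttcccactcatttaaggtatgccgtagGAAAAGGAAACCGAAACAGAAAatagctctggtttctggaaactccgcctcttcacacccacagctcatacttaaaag

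In Irgm2 and in Igtp a gamma-activated site stands upstream of a response element, with 2 bases between them. Irgm1 holds 2 overlapping response elements near the start site and no gamma-activated site. The promoter of Isg15 holds 3 overlapping response elements, while Ifit1 and Ifit3 hold 2 separate ones each. Ifit2 has 2 RefSeq start sites and is not printed. Neither of its windows holds a response element, and one holds a gamma-activated site from -241 to -233.

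Of the 40 members, 30 had a promoter in the RefSeq table, as windows of 300 bases that reach 50 bases past the start site. A response element was found in 16 of these 30 (53.3%), against 3.79% of the tested genes with a window and 3.44% of all 32851 windows. A gamma-activated site was found in 11 of 30 members (36.7%), against 8.40% of tested genes and 8.30% of all windows. Both motifs were present in 6 members, Irgm2, Igtp, Gbp7, Oas1a, Eif2ak2 and Bst2, and 9 members held neither. By class, 6 of 6 GTPases with a window held a response element, as did 3 of 6 IFIT and OAS genes and 1 of 6 STAT and IRF factors (Stat2). A match describes the letters in the window and was not tested as a binding site.

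**Figure D1:**
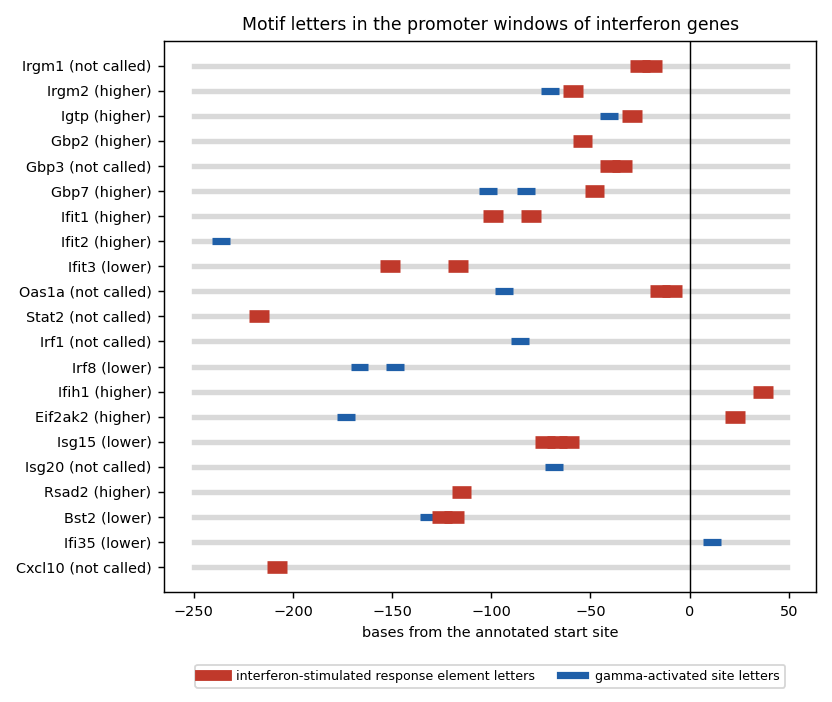
Positions of both motifs in the promoters of the 21 members that hold at least 1 match, as distance in bases from the RefSeq start site (x axis), 1 gene per line. The other 9 members with a window held no match, and 10 members had no window. In 3 of the 21 genes, Ifih1, Eif2ak2 and Ifi35, a match lies past the start site.

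Across the whole table, 57.0% of tested genes passed the threshold (adjusted p under 0.05 in edgeR's quasi-likelihood test, adjusted over all genes tested), with 29.6% higher and 27.4% lower in the Git2-knockout libraries. Git2 itself was at 22.2, 23.7 and 22.7 CPM (reads scaled to a common library size with TMM factors) in the wild-type and at 17.4, 15.5 and 16.8 CPM in the Git2-knockout libraries, which is 72.3% of the wild-type mean (log2 fold change -0.47, SE 0.07, adjusted p = 4.44e-05), so the targeted gene was lower but still read. All 12 epithelial markers were present, at a summed 12720 to 12910 TPM (a level that also scales by transcript length) in the wild-type and 12220 to 12450 TPM in the Git2-knockout libraries. Of those 12, 1 was higher and 8 were lower, with a median log2 fold change of -0.19 and the lowest values for Fabp2 (-0.66) and Krt19 (-0.65). Markers of other cells moved with the groups. Fibroblast markers were higher in 9 of 9 tested (30.2 to 34.2 against 88.0 to 97.1 TPM summed over 10 genes), endothelial markers in 9 of 10 (18.7 to 19.4 against 43.1 to 48.9 TPM), and B cell markers were lower in 7 of 7 (22.2 to 22.8 against 9.17 to 10.7 TPM summed over 8 genes). Among these calls, Postn (fibroblast) and Tek (endothelial) passed the filter on low counts only through the Git2-knockout libraries. Blk (B cell) passed it only through the wild-type libraries. Each is high in the group that carried it through, so these calls are not independent of the filter. No gene of the fibroblast, endothelial and B cell lists was at 0 in all libraries, and the part of these cells in the results below was not tested.

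Among the interferon genes, the response was mixed in direction. Of the 40 members, 14 were higher and 11 were lower in the Git2-knockout libraries, and 15 did not pass the threshold. That is 62.5% called, near the 57.0% of all tested genes, and the median log2 fold change of the members was 0.06 against 0.02 for all tested genes. In 27 of 40 members the values showed no overlap between groups, as in 62.9% of all tested genes. The largest differences were rises of the GTPases Gbp2, Iigp1 and Irgm2 and of Oas2, and a fall of Isg15. Gbp2, Iigp1 and Oas2 passed the filter on low counts only through the Git2-knockout libraries, where they are high. Their place among the largest rises is therefore not independent of the filter. Because the libraries are bulk RNA, fewer cells of a type and less RNA per cell cannot be told apart.

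**Figure D2:**
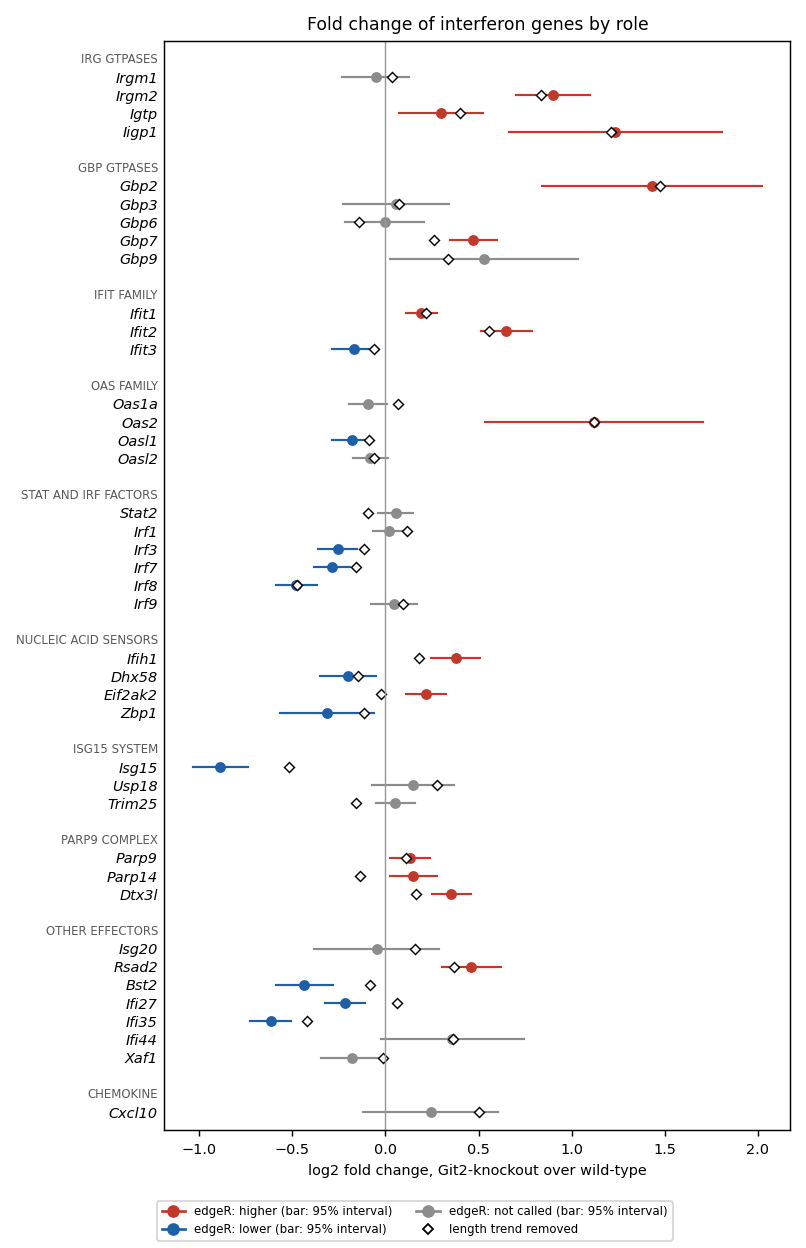
Log2 fold change of each of the 40 members, Git2-knockout over wild-type (x axis), grouped by role, with 95% confidence intervals from edgeR's fit red or blue where the member was called higher or lower and grey where it was not; open diamonds give the value with the length trend removed. The filled points of the GTPases lie at or right of 0 apart from Irgm1 and Gbp6, at -0.05 and -0.00, and those of STAT and IRF factors run from -0.48 (Irf8) to 0.06 (Stat2).

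The ligands come first in the pathway, and interferon transcripts were barely read. The 6 interferon genes in the table had 0 to 3 reads per library and none passed the filter, so a difference in interferon transcripts was not detectable at this depth of 16284414 to 19106581 counts per library. Interleukin 18 (Il18), a cytokine that induces interferon-gamma and is no interferon itself, was the only gene of the ligand list that was tested. It was at 10.3, 10.5 and 10.01 CPM in the wild-type and at 7.16, 6.09 and 6.65 CPM in the Git2-knockout libraries. Those groups do not overlap, and Il18 fell (log2 fold change -0.63, SE 0.10, adjusted p = 5.5e-05).

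Receptor genes moved little. Of 6 receptor subunits, 4 were higher and none was lower (66.7% called, against 57.0% of all tested genes). Il10rb, the subunit shared by the type III interferon and interleukin 10 receptors, had a log2 fold change of 0.20 (SE 0.04, adjusted p = 0.000406). Ifnar1, of the type I receptor, was at 0.18 (SE 0.05, adjusted p = 0.0030), and Ifngr1, of the interferon-gamma receptor, at 0.14 (SE 0.04, adjusted p = 0.00667). With length and GC trends removed Ifnar1 was called lower (-0.11, adjusted p = 0.033), and with the GC trend removed Ifngr1 was not called (adjusted p = 0.0847). The call of Ifnlr1, the subunit specific to type III interferon, at 0.13 (adjusted p = 0.0347), was lost in 4 of 6 fits that left out 1 library, with an adjusted p of 0.172 without wild-type replicate 3. Ifngr2, the receptor gene with the most reads, was at 191 ± 1.74 CPM in the wild-type and 187 ± 10.1 CPM in the Git2-knockout libraries (SD, n = 3) and did not pass the threshold.

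Among the kinases that the receptors carry, Jak2 was at 73.7, 70.5 and 69.8 CPM in the wild-type and at 87.7, 89.2 and 92.0 CPM in the Git2-knockout libraries (log2 fold change 0.33, SE 0.05, adjusted p = 1.9e-05). That rise lost its call with the GC trend removed (0.10, adjusted p = 0.0762) and with both trends removed (0.00, adjusted p = 0.939). Jak1 also rose, by 0.28 on the log2 scale (SE 0.05, adjusted p = 9.57e-05). Tyk2 fell by 0.15 (SE 0.05, adjusted p = 0.0284), and this call was lost without wild-type replicate 3 (adjusted p = 0.155). Stat3, which serves interleukin 6 family cytokines more than interferons, had a log2 fold change of 0.09 (SE 0.04, adjusted p = 0.0606).

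The 6 STAT and IRF members split into 3 factors whose level did not pass the threshold and 3 that were lower. Stat2 and Irf9, which belong to the complex that binds the response element, were at 0.06 (95% confidence interval -0.04 to 0.15) and 0.05 (-0.08 to 0.17) on the log2 scale. Irf1, the factor that interferon-gamma induces first, was at 149, 149 and 151 CPM in the wild-type and at 152, 150 and 153 CPM in the Git2-knockout libraries. Its log2 fold change was 0.02, with a 95% confidence interval of -0.07 to 0.10. Irf1 was called higher with the length trend removed (0.12, adjusted p = 0.00633), the GC trend removed (0.18, adjusted p = 0.00134) or both (0.25, adjusted p = 1.69e-06), and on log2(TPM + 1) values (0.19, adjusted p = 0.000759).

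Irf3, which carries the first signal from nucleic acid sensors, was at 57.1, 58.3 and 57.9 CPM in the wild-type and at 48.2, 47.5 and 49.3 CPM in the Git2-knockout libraries (log2 fold change -0.26, SE 0.05, adjusted p = 0.000288). Irf7, the factor that amplifies type I interferon production and is itself interferon-induced, was at 250, 251 and 265 CPM against 217, 198 and 214 CPM (log2 fold change -0.29, SE 0.05, adjusted p = 5.25e-05). In each case the 3 wild-type libraries all lie above the 3 Git2-knockout libraries. Neither call held when trends with transcript length and GC content were both removed (adjusted p = 0.389 for Irf3 and 0.84 for Irf7).

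Irf8, a factor best known from myeloid and B cells, was at 88.3, 93.4 and 98.0 CPM in the wild-type and at 65.1, 65.3 and 70.4 CPM in the Git2-knockout libraries. The groups lie well apart, and the log2 fold change was -0.48 (SE 0.05, adjusted p = 1.35e-06). With both trends removed it was -0.30 (adjusted p = 5.11e-06). Irf8 averaged 67.4 TPM in the wild-type libraries. B cell markers were also lower in the Git2-knockout libraries, as given above. Irf8 and Bst2 also stand in the dendritic cell list, in which 5 of 10 genes were tested. They were the only ones of the 5 called lower. Itgax, of the same list, rose from 3.26 to 6.17 CPM (log2 fold change 0.92, SE 0.14, adjusted p = 3.6e-05), and Clec9a and Batf3 had 0 to 5 and 1 to 3 reads per library. Macrophage markers were higher in 4 (C1qa, C1qb, Fcgr1 and Fcgr3) and lower in 1 of 13 tested (38.5% called, against 57.0% of all tested genes). Fcgr1 and Fcgr3 passed the filter on low counts only through the Git2-knockout libraries, where they are high. The lower marker, Csf1r, had the most reads of the macrophage list and went from 197 to 90.7 CPM (log2 fold change -1.12, SE 0.04). The summed level of the list was 171 to 173 TPM in the wild-type and 142 to 147 TPM in the Git2-knockout libraries. Much of that sum is Csf1r, at a mean of 104 TPM in the wild-type and 53.6 TPM in the Git2-knockout libraries. The part of these cells in the fall of Irf8 was not tested.

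Irf2, a repressor of interferon targets that competes with Irf1, was at 33.8, 33.3 and 33.6 CPM in the wild-type and at 40.1, 35.8 and 34.7 CPM in the Git2-knockout libraries. Its groups do not overlap, but its log2 fold change of 0.13 did not pass the threshold (adjusted p = 0.0735).

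All 4 sensors among the members passed the threshold, in opposite directions, where 57.0% of all tested genes passed. Ifih1 (MDA5), which senses long double-stranded RNA, was at 52.2, 47.4 and 44.7 CPM in the wild-type and at 58.3, 64.0 and 65.1 CPM in the Git2-knockout libraries (log2 fold change 0.38, SE 0.06, adjusted p = 8.63e-05). Eif2ak2 (PKR), the kinase that stops translation when it binds double-stranded RNA, ran from 94.6 to 99.8 CPM against 107 to 120 CPM (log2 fold change 0.22, SE 0.05, adjusted p = 0.00147). Dhx58 (LGP2), a helicase without a signalling domain of its own that tunes MDA5, fell by 0.20 on the log2 scale (SE 0.07, adjusted p = 0.0242). Zbp1, which senses Z-form nucleic acid and starts necroptosis, fell by 0.31 (SE 0.12, adjusted p = 0.0346).

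Of these sensor calls, those of Dhx58 and Zbp1 were lost in several of the fits that left out 1 library. For Dhx58 the adjusted p was 0.0902, 0.0834 and 0.0894 without wild-type replicate 1, wild-type replicate 2 and Git2-knockout replicate 2. Zbp1 lost its call without any library but Git2-knockout replicate 2, with an adjusted p of up to 0.0916. With the length trend removed, Eif2ak2 was at -0.02 and no longer called, and Ifih1 was the only sensor still called (0.18, adjusted p = 0.00481). With length and GC trends removed Ifih1 was not called (adjusted p = 0.916), and Eif2ak2 was called lower (-0.19, adjusted p = 0.000189).

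Downstream of the sensors, the adaptor genes Mavs (log2 fold change -0.22, SE 0.05, adjusted p = 0.00114) and Ticam1 (-0.22, SE 0.05, adjusted p = 0.000866) fell. Mavs relays MDA5 and RIG-I signals at mitochondria, and Ticam1 (TRIF) those of Toll-like receptors 3 and 4. With the GC trend removed neither was called (adjusted p = 0.0807 for Mavs and 0.542 for Ticam1), nor on log2(TPM + 1) values (0.519 and 0.315), and Ticam1 was not called with both trends removed (0.189). Ddx58 (RIG-I), the sensor of uncapped RNA ends, rose by 0.21 (SE 0.05, adjusted p = 0.00119) and lost its rise when the length trend was removed (0.03, adjusted p = 0.545). The kinase Tbk1, which phosphorylates Irf3, was at 0.08 (SE 0.05, adjusted p = 0.18). Of the 8 tested genes in this list, 1 was higher and 2 were lower (37.5% called, against 57.0% of all tested genes).

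Of the 3 classes compared, GTPases, IFIT and OAS genes, and STAT and IRF factors, the GTPases had the most rises. These proteins coat the vacuoles of intracellular microbes (the immunity-related GTPases and the guanylate-binding proteins) and are among the most strongly interferon-gamma-induced genes. Of 9 tested, 5 were higher and none was lower (also 0 in DESeq2, and 0 at an unadjusted p under 0.05), with a median log2 fold change of 0.47. That is 55.6% called, near the 57.0% of all tested genes. Gbp2 and Iigp1, among the 5, passed the filter on low counts only through the Git2-knockout libraries. With the GC trend removed, 5 were higher and 2 were lower, Irgm1 (-0.22, adjusted p = 0.0405) and Gbp6 (-0.32, adjusted p = 0.0136). In that fit 6257 of 13558 tested genes were called. Summed over the 9 genes, the level per transcript length was 44.7, 42.8 and 43.8 TPM in the wild-type and 59.1, 63.2 and 62.3 TPM in the Git2-knockout libraries. In summed CPM the GTPases were at 71.28, 69.75 and 68.98 in the wild-type and 90.74, 90.81 and 91.61 in the Git2-knockout libraries.

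Irgm2 was at 9.58, 9.29 and 7.82 CPM in the wild-type and at 15.8, 16.5 and 17.5 CPM in the Git2-knockout libraries. The groups are clearly separate, with a 1.86-fold higher level (log2 fold change 0.90, SE 0.09, adjusted p = 7.3e-07). Igtp, whose promoter holds the same pair of motifs at the same spacing, was at 7.48, 7.26 and 8.94 CPM against 9.04, 10.1 and 9.95 CPM. The groups of Igtp nearly touch, and its rise of 0.30 (SE 0.11, adjusted p = 0.0243) lost its call without wild-type replicate 1 (adjusted p = 0.0936), wild-type replicate 2 (0.116), Git2-knockout replicate 2 (0.0837) or Git2-knockout replicate 3 (0.0829). Irgm1 was at 13.3, 12.2 and 13.4 CPM against 12.0, 13.1 and 12.4 CPM, which overlap, and its interval of -0.23 to 0.13 on the log2 scale lies below the estimate for Irgm2.

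Iigp1, an effector GTPase that the Irgm proteins control, had 10, 11 and 17 reads in the wild-type and 25, 30 and 26 reads in the Git2-knockout libraries. Gbp2 was as scarce, with 10, 11 and 8 reads against 22, 26 and 23. Neither gene's groups overlap, and both genes passed the filter on low counts only through the Git2-knockout libraries. The log2 fold changes were 1.23 for Iigp1 (SE 0.27, adjusted p = 0.000979) and 1.43 for Gbp2 (SE 0.28, adjusted p = 0.00038), and both are below 2 CPM in every library.

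Gbp7, the guanylate-binding protein with the most reads, was at 23.8, 23.5 and 22.7 CPM in the wild-type and at 33.6, 31.5 and 32.1 CPM in the Git2-knockout libraries (log2 fold change 0.47, SE 0.06, adjusted p = 5.61e-06). That rise was 0.26 with the length trend removed (adjusted p = 0.00133) and 0.10 with length and GC trends removed (adjusted p = 0.206). Gbp3 and Gbp6 had overlapping groups and intervals of -0.23 to 0.34 and -0.21 to 0.21. Gbp9 was at 0.53 (SE 0.24, adjusted p = 0.0689) with 29 to 64 reads per library. Gbp6 and Gbp9 have near-identical neighbours (Gbp10, and Gbp4 and Gbp8), between which the estimated counts could be split, so their values are uncertain.

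**Figure D3:**
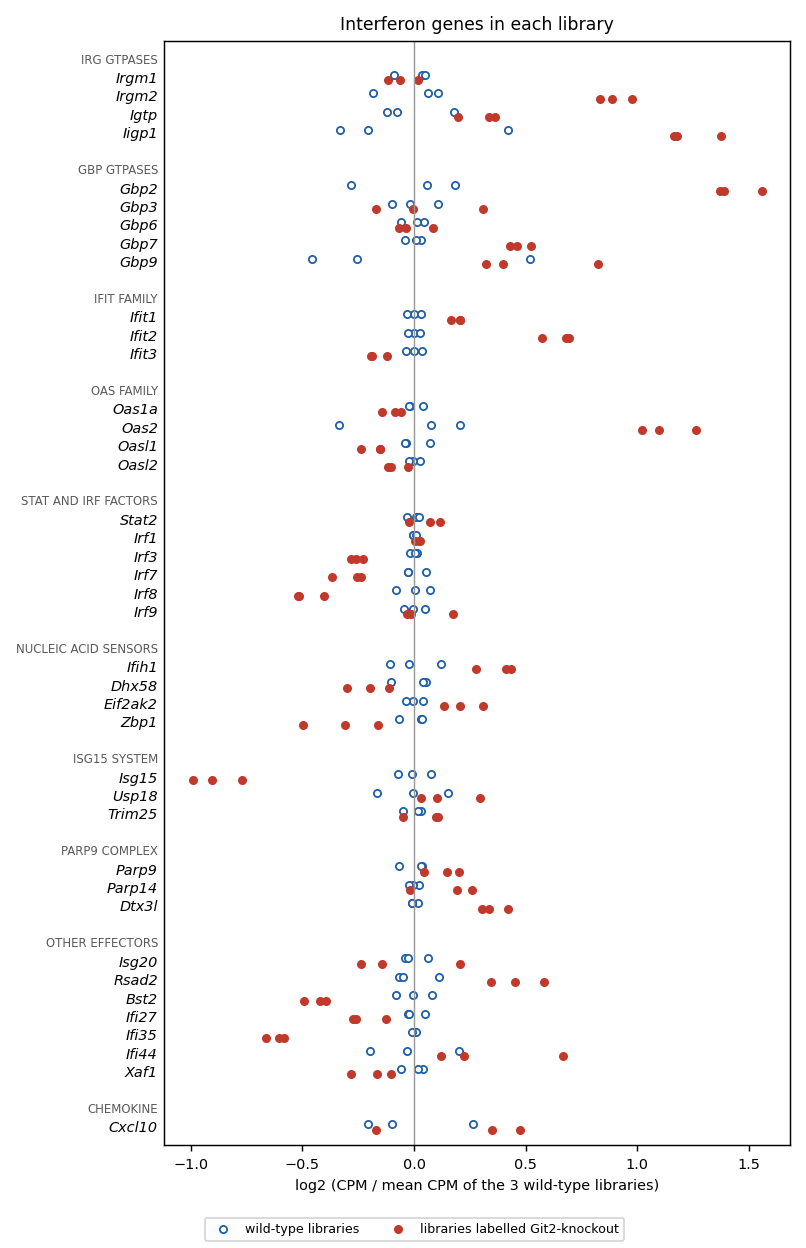
Level of each of the 40 members in each library, as log2 of its CPM over the mean CPM of the 3 wild-type libraries (x axis), 1 gene per line in order of role, with the 3 wild-type and 3 Git2-knockout libraries as separate points. The Git2-knockout points of Gbp2, Iigp1, Oas2 and Irgm2 lie farthest right and those of Isg15 farthest left.

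The IFIT and OAS genes parted within each family. IFIT proteins bind viral RNA that lacks the host cap marks, and OAS proteins make the second messenger that activates RNase L. Of the 7 genes, 3 were higher and 2 were lower, which is 71.4% called, against 57.0% of all tested genes. Oas2, among the 3, passed the filter on low counts only through the Git2-knockout libraries, where it is high. The groups of all 7 do not overlap, which also holds for 62.9% of all tested genes. Their median log2 fold change was -0.08, and the summed level was 469, 462 and 460 TPM in the wild-type and 516, 529 and 530 TPM in the Git2-knockout libraries. Most of that sum is Ifit1, Oas1a and Oasl2, at 160, 90.0 and 99.9 TPM in the wild-type. In summed CPM the difference was smaller, with 526.0, 525.7 and 523.3 CPM in the wild-type and 546.5, 537.7 and 543.7 CPM in the Git2-knockout libraries.

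Ifit1 was at 205, 209 and 200 CPM in the wild-type and at 229, 236 and 236 CPM in the Git2-knockout libraries (log2 fold change 0.19, SE 0.04, adjusted p = 0.000625). It was at 0.01 with length and GC trends removed (adjusted p = 0.787). Ifit2 was at 19.2, 19.5 and 18.8 CPM against 31.0, 28.5 and 30.7 CPM, a 1.57-fold higher level (log2 fold change 0.65, SE 0.06, adjusted p = 4.26e-07). Ifit3, which stabilises the RNA-bound form of IFIT1, was at 32.7, 31.1 and 31.9 CPM against 27.9, 29.3 and 28.0 CPM. That fall of 0.17 on the log2 scale (SE 0.06, adjusted p = 0.0195) lost its call without wild-type replicate 1 (adjusted p = 0.0665) and with the length trend removed (adjusted p = 0.368). Ifit3 has a near-identical neighbour, Ifit3b, with which its reads may be shared.

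Oas2, an active synthetase, had 13, 9 and 12 reads in the wild-type and 24, 21 and 22 reads in the Git2-knockout libraries (log2 fold change 1.12, SE 0.28, adjusted p = 0.00255). Oasl1, which lacks synthetase activity and restrains Irf7 translation, was at 69.7, 69.6 and 75.2 CPM against 64.4, 60.6 and 64.4 CPM (log2 fold change -0.18, SE 0.05, adjusted p = 0.00704). With the length trend removed Oasl1 was at -0.09 and not called (adjusted p = 0.0893). Oas1a and Oasl2 were at -0.09 (adjusted p = 0.111) and -0.08 (adjusted p = 0.123), and Oas1a is uncertain because of its close copy Oas1g.

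Set side by side, the GTPases had 5 rises and no fall of 9, the IFIT and OAS genes 3 rises and 2 falls of 7, and the STAT and IRF factors no rise and 3 falls of 6. Gbp2, Iigp1 and Oas2, among these rises, passed the filter on low counts only through the Git2-knockout libraries. In summed level per length, the factors did not follow the GTPases: they were at 717, 719 and 729 TPM in the wild-type and at 715, 713 and 737 TPM in the Git2-knockout libraries. In summed CPM the factors were lower, at 790.4, 803.1 and 813.7 CPM in the wild-type and 733.6, 714.5 and 747.2 CPM in the Git2-knockout libraries. The difference between the classes was not tested. With the length trend removed the classes had 5 and 0, 3 and 0, and 1 and 4 rises and falls. With the GC trend removed they had 5 and 2, 2 and 1, and 2 and 1, and with both removed 4 and 1, 3 and 0, and 1 and 1. Across the table, 57.0% of tested genes were called with no trend removed and 53.1% with the length trend removed. The table-wide calls were 6257 of 13558 with the GC trend removed, and 43.6% with both removed. On log2(TPM + 1) values (limma) the classes had 6 and 0, 3 and 0, and 3 and 3. On that TPM scale the median of all genes is 0.14 and 75.3% of all calls are rises, against 51.9% on the CPM scale, and 21 members rose and 6 fell, where 56.3% of all genes were called. With upper-quartile scaling 12 members rose and 14 fell (57.2% of all genes called), with library totals alone 14 rose and 8 fell (56.6%), and in DESeq2 11 rose and 8 fell (47.7%).

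In the ISG15 system, the modifier fell and Usp18 and Trim25 did not pass the threshold. Isg15, which is attached to newly made proteins and also secreted, was at 33.2, 34.7 and 36.9 CPM in the wild-type and at 18.6, 17.6 and 20.5 CPM in the Git2-knockout libraries. Each Git2-knockout library is far below each wild-type library, and the level was 54.1% of the wild-type (log2 fold change -0.89, SE 0.07, adjusted p = 3.86e-08). Per transcript length, Isg15 was at 96.1, 99.33 and 104.7 TPM in the wild-type and at 57.9, 57.5 and 66 TPM in the Git2-knockout libraries. The fall was 0.52 with the length trend removed (adjusted p = 1.89e-06) and 0.44 with both trends removed (adjusted p = 1.25e-05).

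Usp18, which removes Isg15 from proteins and damps the type I receptor, was at 9.04, 10.1 and 11.3 CPM against 12.4, 10.4 and 10.9 CPM, with overlapping groups and an interval of -0.07 to 0.37. It was called higher with the length trend removed (0.28, adjusted p = 0.0184) and on log2(TPM + 1) values (0.29, adjusted p = 0.013). Trim25, the ubiquitin ligase that activates RIG-I, was at 0.05 with an interval of -0.05 to 0.16. Trim25 changed sign and was called lower with the length trend removed (-0.16, adjusted p = 0.000613).

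The PARP9 complex, in which the ligase Dtx3l and the ADP-ribose binding protein Parp9 pair to enhance interferon responses, had 3 rises of 3. Across the whole table, 29.6% of tested genes were higher. Dtx3l was at 53.8, 52.8 and 52.7 CPM in the wild-type and at 65.7, 71.1 and 67.0 CPM in the Git2-knockout libraries (log2 fold change 0.35, SE 0.05, adjusted p = 1.79e-05). The groups are well apart for Dtx3l only. Parp9 was at 0.13 (adjusted p = 0.033) and Parp14, a related mono-ADP-ribosyltransferase, at 0.15 (adjusted p = 0.0405), and both lost their calls without any 1 library other than Git2-knockout replicate 1, with an adjusted p of up to 0.237 and 0.245. Parp14, with the longest transcript of the members at 7259 bases, was called lower with the length trend removed (-0.14, adjusted p = 0.00301).

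Further effectors moved both ways. Rsad2 (viperin), which makes a chain-terminating nucleotide, was at 23.3, 20.6 and 20.9 CPM in the wild-type and at 27.4, 32.3 and 29.6 CPM in the Git2-knockout libraries (log2 fold change 0.46, SE 0.07, adjusted p = 6.32e-05). Ifi35, a partner of Nmi, was at 54.2, 54.4 and 53.8 CPM against 35.6, 34.2 and 36.2 CPM, which is 65.2% of the wild-type (log2 fold change -0.62, SE 0.05, adjusted p = 6.47e-08). The wild-type values of Ifi35 differ by less than 1 CPM, and no Git2-knockout library comes near them.

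Bst2 (tetherin), which holds budding virus at the cell surface, was at 22.4, 25.0 and 23.6 CPM in the wild-type and at 17.7, 18.0 and 16.8 CPM in the Git2-knockout libraries (log2 fold change -0.43, SE 0.07, adjusted p = 7.68e-05). Bst2 is also a marker of plasmacytoid dendritic cells, whose other marker on the list, Siglech, had 9 to 18 reads per library. Ifi27, a mitochondrial protein, ran from 85.6 to 90.2 CPM against 72.1 to 79.9 CPM (log2 fold change -0.22, SE 0.05, adjusted p = 0.00176). Both are short transcripts, and with the length trend removed Bst2 was at -0.08 (adjusted p = 0.34) and Ifi27 at 0.06 (adjusted p = 0.194).

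Isg20, an exonuclease, was at -0.05, Ifi44 at 0.36 (adjusted p = 0.103) and Xaf1, a pro-apoptotic protein, at -0.18 (adjusted p = 0.0554). Cxcl10, the chemokine that draws T cells and is a common readout of interferon-gamma, was at 4.30, 4.01 and 5.54 CPM in the wild-type and at 5.89, 4.10 and 6.42 CPM in the Git2-knockout libraries. Its groups overlap, and its log2 fold change was 0.24 (SE 0.17, adjusted p = 0.235). With the length trend removed Cxcl10 was called higher (0.50, adjusted p = 0.0106).

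Fold changes followed transcript length, in the members and in the whole table. Lengths were those implied by the deposited counts and FPKM values, known for 39 of the 40 members (not Oas2). Spearman's rho between length and log2 fold change was 0.649 over 39 members and 0.488 over 12629 genes, as a description across genes of the same 6 libraries. Of 9 members under 1500 bases, none was higher and 5 were lower. Of 16 members from 1500 to 3000 bases, 3 were higher and 6 were lower, and of 14 from 3000 bases up, 10 were higher and none was lower. In the whole table the same bins held 164 higher and 1309 lower of 2348, 904 and 1624 of 4642, and 2675 and 754 of 5639. What the relation with length comes from was not tested.

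**Figure D4:**
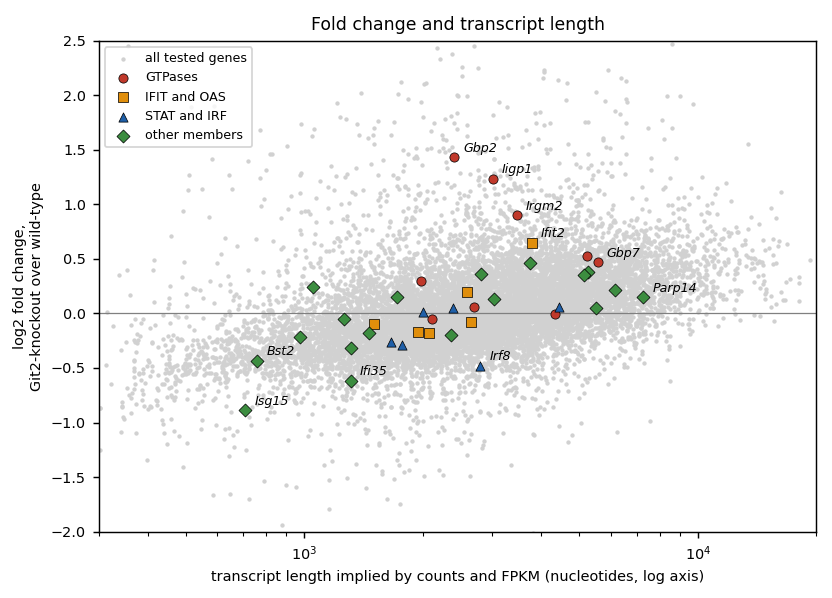
Log2 fold change of Git2-knockout over wild-type (y axis) against transcript length in bases (x axis, log scale), for all tested genes with a length (small points) and for 39 members (large points); 35 genes beyond the y axis and 14 beyond the x axis are not drawn. Short members such as Isg15 and Bst2 lie low, and most members from 3000 bases up lie above 0.

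When a smooth trend with length was removed from every gene, 15 members were higher and 8 lower, where 53.1% of all genes were called. Of the 25 members called before, 17 stayed called in the same direction. With length and GC trends removed together, an alternative chosen after seeing the data, 13 were higher and 7 lower (43.6% of all genes), and 11 of the 25 stayed called in the same direction. Those 11 were Irgm2, Igtp, Iigp1, Gbp2, Ifit2, Oas2, Dtx3l and Rsad2, which rose, and Irf8, Isg15 and Ifi35, which fell. All but Igtp also kept direction and call in every fit that left out 1 library, under each other scaling, with no filter, in DESeq2, limma-voom, the non-robust fit and limma on log2(TPM + 1), and with the replicate number as a block; Iigp1, Gbp2 and Oas2 fall below a stricter filter of 5 CPM and were then not tested. Iigp1, Gbp2 and Oas2 had passed the main filter only through the Git2-knockout libraries, where they are high. Against a 1.5-fold change, only Irgm2 (adjusted p = 0.013), Gbp2 (adjusted p = 0.0263) and Isg15 (adjusted p = 0.00222) passed.

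The presence of a response element in the promoter window was set against direction. Of 10 higher members with a window, 8 held one, as did 3 of 8 lower members and 5 of 12 that did not pass the threshold. The 16 members with a response element had a median log2 fold change of 0.21 and the 14 without one -0.06, or 0.12 and -0.04 with the length trend removed. Gene classes share family members and neighbours, so these counts are a description. Isg15, with 3 overlapping elements, fell, and Irgm1, with 2, did not pass the threshold.

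Further genes of the pathway, from lists of ligands, receptors, kinases, adaptors, IRF genes, feedback inhibitors and other interferon-stimulated genes, were read from the same fit. Of 72 tested, 22 were higher and 13 lower (48.6%, against 57.0% of all genes), with a median log2 fold change of 0.09. Among 9 feedback inhibitors, 1 rose and 2 fell. Irf2bp1, a corepressor of Irf2, fell by 0.45 on the log2 scale (SE 0.05, adjusted p = 2.41e-06). Its log2 fold change was -0.26 with length and GC trends removed. The phosphatase genes Ptpn2 (0.17, adjusted p = 0.00893) and Ptpn6 (-0.19, adjusted p = 0.0123), which act on Janus kinases and receptors, lost their calls without wild-type replicate 3 (adjusted p = 0.0509 and 0.0688).

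Of 39 other interferon-stimulated genes tested, 13 rose and 7 fell (51.3% called, against 57.0% of all tested genes). Samd9l, an antiviral translation inhibitor, was at 176, 175 and 170 CPM in the wild-type and at 277, 318 and 315 CPM in the Git2-knockout libraries (log2 fold change 0.81, SE 0.05, adjusted p = 3.05e-09). Bst1, an ectoenzyme of NAD metabolism that is not usually counted as an interferon-stimulated gene, was at 129, 131 and 135 CPM against 71.2, 70.1 and 69.3 CPM (log2 fold change -0.91, SE 0.04, adjusted p = 1.65e-10). Lgals9 (galectin 9) and Shisa5 each fell by 0.45 (adjusted p = 2.51e-07 and 3.91e-07). With length and GC trends removed the log2 fold changes were 0.29 for Samd9l, -1.01 for Bst1, -0.23 for Lgals9 and -0.19 for Shisa5. Lgals3bp, the gene of this list with the highest level at 1008 ± 13.8 CPM in the wild-type libraries (SD, n = 3), was at 996 ± 28.1 CPM in the Git2-knockout libraries and did not pass the threshold (adjusted p = 0.718).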

How the data were processed

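Poly(A) RNA of 6 libraries was measured, 3 wild-type and 3 Git2-knockout, grouped by the sample titles. The authors deposited 1 table which, per the file headers, holds read counts, FPKM and TPM values per library. The deposited counts are estimated counts, since 58.9% to 69.2% of values per library are not whole. FPKM values, deposited by the authors, scale reads by length and library total, and deposited TPM values sum to the same total in each library. RSEM, HISAT, Bowtie2 and the build GRCm39 appear in the submitters' processing notes. Their versions, the annotation and the strand setting were not given in the sources used here.

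Counts were rounded and tested with edgeR 4.0.16 in R 4.3.3 (filterByExpr, TMM, robust quasi-likelihood test, two-sided, no covariates), with Benjamini-Hochberg adjustment over the 13558 genes kept of 18159 and a threshold of 0.05. The SE is |log2 fold change| over the root of its F statistic. TMM-scaled CPM gives levels of a gene across libraries, and TPM levels between genes. Between libraries of a group, chi-square per degree of freedom was 1.59 to 6.79, and between groups it was 28.2 to 40.2. No library was counted as a repeat of another. The lowest value, 1.59 for wild-type replicates 1 and 2, does not settle whether they are technical repeats. Total counts ran from 16284414 to 19106581 per library.

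Transcript length was the length implied by counts and FPKM (FPKM of at least 0.5, 93.1% of tested genes), and GC content came from GENCODE M21 transcripts (97.9%). Trends were fitted by loess (span 0.5) within each library and removed as offsets; genes without a value kept their counts. Alternatives were RLE, upper-quartile and library-total scaling, DESeq2 1.42.0, limma 3.58.1 (voom, and trend on log2(TPM + 1)), no filter, at least 5 CPM in 3 libraries, a non-robust fit, a replicate block, trends removed, a test against 1.5-fold and leaving out each library. The test was tested on simulated data. All members are named; each pathway list names up to 4 called genes with the smallest p and its 2 genes with the highest CPM. A few genes that this rule names are not reported here. Members, lists and motifs were chosen with earlier results of these data known.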

Additional observations from a re-analysis of the deposited data

How the results depend on the processing

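Depth limits Iigp1, Gbp2 and Oas2, with at most 30 reads in any library, and the interferon genes. Over 20 alternatives and 40 members, 664 of 794 results kept their call or their lack of one. Of these 664, 22 changed sign with no call on either side. With the sign kept, 81 results lost the call and 31 gained one. The other 18 reversed, which means a change of sign with a call on at least 1 side. Against a 1.5-fold change, the calls were 605 across the table, 3 members, 2 GTPases, 0 IFIT and OAS genes, 0 STAT and IRF genes and 3 pathway genes. At an unadjusted p under 0.05, edgeR's glmTreat had 1 IFIT and OAS gene and 0 STAT and IRF genes, where the test against no change called 5 and 3 and DESeq2 4 and 3. With at least 5 CPM, 3 GTPases were called, and only 6 of 9 were tested. IFIT and OAS calls were 3 with the length trend removed, the GC trend removed, both removed or on log2(TPM + 1). STAT and IRF calls were 5 with the length trend removed and 6 on log2(TPM + 1). The cause was not tested.

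Leaving out 1 library gave 6580 to 8343 calls across the table (7725 with all), 19 to 28 members (25), 4 to 5 GTPases (5), 4 to 7 IFIT and OAS genes (5), 3 STAT and IRF genes in each fit (3) and 25 to 37 pathway genes (35). Same-numbered libraries correlated at 0.04, -0.00 and 0.05 in their deviations, so the numbers were not taken as pairs. With the replicate block, 7472 genes, 24 members, 6 GTPases, 5 IFIT and OAS genes, 3 STAT and IRF genes and 34 pathway genes were called.

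Reversals came from the length and GC trends and from TPM values. With the length trend removed, log2 fold changes were -0.092 for Stat2, -0.022 for Eif2ak2, -0.156 for Trim25, -0.137 for Parp14, 0.062 for Ifi27, -0.093 for Ifnar1 and -0.187 for Ptpn11. With the GC trend removed they were -0.075 for Ifit1, 0.008 for Oasl1, -0.005 for Eif2ak2, -0.031 for Parp9, 0.049 for Tyk2, -0.136 for Ptpn2 and 0.16 for Lgals3bp. With both removed they were 0.127 for Oas1a, 0.062 for Oasl1, 0.049 for Irf3, -0.191 for Eif2ak2, -0.16 for Trim25, -0.012 for Parp9, -0.244 for Parp14, 0.084 for Bst2, 0.131 for Ifi27, -0.108 for Ifnar1, -0.101 for Ddx58, 0.017 for Ptpn6, -0.16 for Ptpn11 and 0.205 for Lgals3bp. On log2(TPM + 1) they were 0.126 for Ifngr2, 0.01 for Tyk2 and 0.144 for Lgals3bp.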

Other observations

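Ratios of reads within 3 gene pairs do not depend on how the libraries are scaled to each other. The pairs were chosen after their values were seen. Irgm2 reads per Irgm1 read were 0.721, 0.763 and 0.583 in the wild-type and 1.32, 1.254 and 1.41 in the Git2-knockout libraries. Ifit2 reads per Ifit3 read, from neighbouring genes of a family, were 0.586, 0.629 and 0.589 against 1.11, 0.974 and 1.09. Isg15 reads per read of Usp18, the protease that removes Isg15 from proteins, were 3.68, 3.44 and 3.27 against 1.498, 1.695 and 1.88. None of the 3 ratios overlaps between the groups. The exact two-sided permutation p was 0.1 for each, the smallest that 3 against 3 libraries can give, and 0.1 after Benjamini-Hochberg adjustment over the 3 ratios. Groups without overlap always give this value, so the p adds nothing to the ratios themselves. With the length trend removed, the log2 fold changes were 0.83 for Irgm2 and 0.03 for Irgm1, 0.55 for Ifit2 and -0.06 for Ifit3, and -0.52 for Isg15 and 0.28 for Usp18.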
